A study of Mus musculus with 6 samples.

Results

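The endothelin system of the retina was followed at the transcript level through 7 genes, which were taken by their names from the table: the ligand genes Edn1, Edn2 and Edn3, the receptor genes Ednra and Ednrb, and the converting enzyme genes Ece1 and Ece2. All 7 were found among the 55376 genes of the table and all 7 passed the filter on low counts. Whole retinas were taken at 240 days of age from 3 wild-type (WT) and 3 Wfs1-/- (Wfs1-KO) mice, whose strain is labelled C57x129 while the study's methods name a C57BL/6 J background. Mutants carry the exon8del allele of Wfs1 in all their cells from the germline on, and no label names a treatment. Each library came from a different mouse, and the unit of level is CPM, the count of a gene relative to the depth of its library.

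Endothelins are short vasoactive peptides that are cut out of long precursors, first by furin-like proteases and then by the endothelin converting enzymes, and that act on a pair of G protein-coupled receptors. In the retina, endothelin 1 is made by vascular endothelium and other cells, the A receptor is found on vascular smooth muscle and pericytes, and the B receptor is prominent on Müller glia and astrocytes. Endothelin 2 is known as a signal released by damaged photoreceptors towards the glia, whereas endothelin 3 and the B receptor are known for guiding pigment cell and enteric neuron precursors.

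The mature peptides of the 3 ligand genes are closely related. The stretches of mRNA that encode the 3 mature peptides, each 63 bases for 21 residues, are shown 5′ to 3′ to let the family be compared, with the codons of the 4 disulfide-forming cysteines in capitals. They were read from GENCODE M21 transcripts on mm10 by the spacing of these cysteines and the final tryptophan, and each lies within exon 2 of 5, on the plus strand, in the coding part of its gene.
Edn1, chr13:42303649-42303711: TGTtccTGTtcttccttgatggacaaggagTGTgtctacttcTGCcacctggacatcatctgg
Edn2, chr4:120161951-120162013: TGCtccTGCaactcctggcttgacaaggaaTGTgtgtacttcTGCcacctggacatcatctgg
Edn3, chr2:174761749-174761811: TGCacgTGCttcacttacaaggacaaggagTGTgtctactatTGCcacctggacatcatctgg
Edn2 differs from Edn1 at 10 of these bases and 3 of the residues, and Edn3 differs from Edn1 at 13 bases and 6 residues. Edn2 and Edn3 differ at 15 bases and 6 residues. The longest identical run shared by whole ligand transcripts is 29 bases, between Edn1 and Edn2, so a read longer than that can be told apart between the ligands. The longest run shared by Ednra and Ednrb is 15 bases and that shared by Ece1 and Ece2 is 17 bases.

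The libraries held between 17916885 and 101334381 counts, and the floor of 3 counts used here corresponds to between 0.0291 and 0.170 CPM, which covers counting error only. The targeted gene Wfs1 was at 64.9, 61.4 and 69.9 CPM in the WT retinas and at 9.63, 0.900 and 11.5 CPM in Wfs1-KO replicates 1, 2 and 3. Wfs1-KO replicate 2 stood apart, with a mean Pearson correlation of 0.918 to the other libraries across genes against 0.962 to 0.971 for the rest. For this reason the fits are also given without it. Wfs1 itself, at a log2 difference of -3.15 ± 0.77 (SE), had an edgeR adjusted p of 0.979 on all 6 retinas, so that this test did not call the targeted gene either. Without Wfs1-KO replicate 2 its edgeR adjusted p was 2.84e-05 at a log2 difference of -2.64 ± 0.16 (SE), and DESeq2 gave it an adjusted p of 0.000913 over the 6 retinas. WT replicate 3 had 4 Xist counts and 1137 Ddx3y counts, whereas each other library had at least 10583 Xist counts, the pattern of a male retina for WT replicate 3 and of female retinas for the rest. The labels used here do not give sex.

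Edn2 (ENSMUSG00000028635.7, chr4:120161206-120167360, plus strand) was the member with the largest difference between genotypes. It was at 4.37, 1.98 and 4.09 CPM in WT replicates 1, 2 and 3. In Wfs1-KO replicates 1, 2 and 3 it was at 12.1, 49.1 and 7.38 CPM. Every mutant retina therefore held more Edn2 than every WT retina, and the spread among the mutants was wide, with replicate 2 highest. In whole tissue a change in the number of cells of a type and a change in the RNA per cell cannot be told apart, which holds for every result here. The raw counts behind these values ran from 72 to 290 in WT and from 325 to 2074 in the mutants. The WT mean was 3.48 ± 1.31 CPM (SD, n = 3) and the mutant mean was 22.9 ± 22.9 CPM (SD, n = 3), which amounts to 2.72 ± 0.74 as a log2 fold change with its SE (95% interval 0.99 to 4.45). The adjusted p was 0.979 by edgeR's quasi-likelihood test over all genes tested and the unadjusted p was 0.00725, so Edn2 did not pass the threshold of 0.05 after adjustment. Without Wfs1-KO replicate 2 it came to 1.50 ± 0.33 (95% interval 0.77 to 2.22), with an adjusted p of 0.262 and an unadjusted p of 0.000914 by the same test. With DESeq2, the tool the study's methods name, Edn2 passed on all 6 retinas (log2 fold change 2.70, adjusted p = 0.00973) and without that retina (log2 fold change 1.49, adjusted p = 0.00216).

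These calls are read against the share of all genes that met the same rule. By edgeR at an adjusted p under 0.05, 0 of 7 members passed on all 6 retinas, against 0.0108% of the genes tested. By the same test without Wfs1-KO replicate 2, 0 of 7 passed, against 0.125% of genes. At an unadjusted p under 0.05 in edgeR, Edn2 was the 1 member that was higher in mutants, against 2.24% of genes in that direction, and 0 members were lower, against 0.566% of genes. Without Wfs1-KO replicate 2 it was again Edn2 alone that was higher at this unadjusted threshold, against 2.8% of genes, and 0 members were lower, against 2.39%. With DESeq2 at an adjusted p under 0.05, Edn2 was the 1 member called higher, against 0.157% of the genes given an adjusted p on all 6 retinas and 0.251% without Wfs1-KO replicate 2. Genes whose mutant retinas all lay above the WT retinas made up 5.01% of those tested and included Edn2, while 0 members belonged to the 3.94% of genes whose mutant retinas all lay below.

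**Figure D1:**
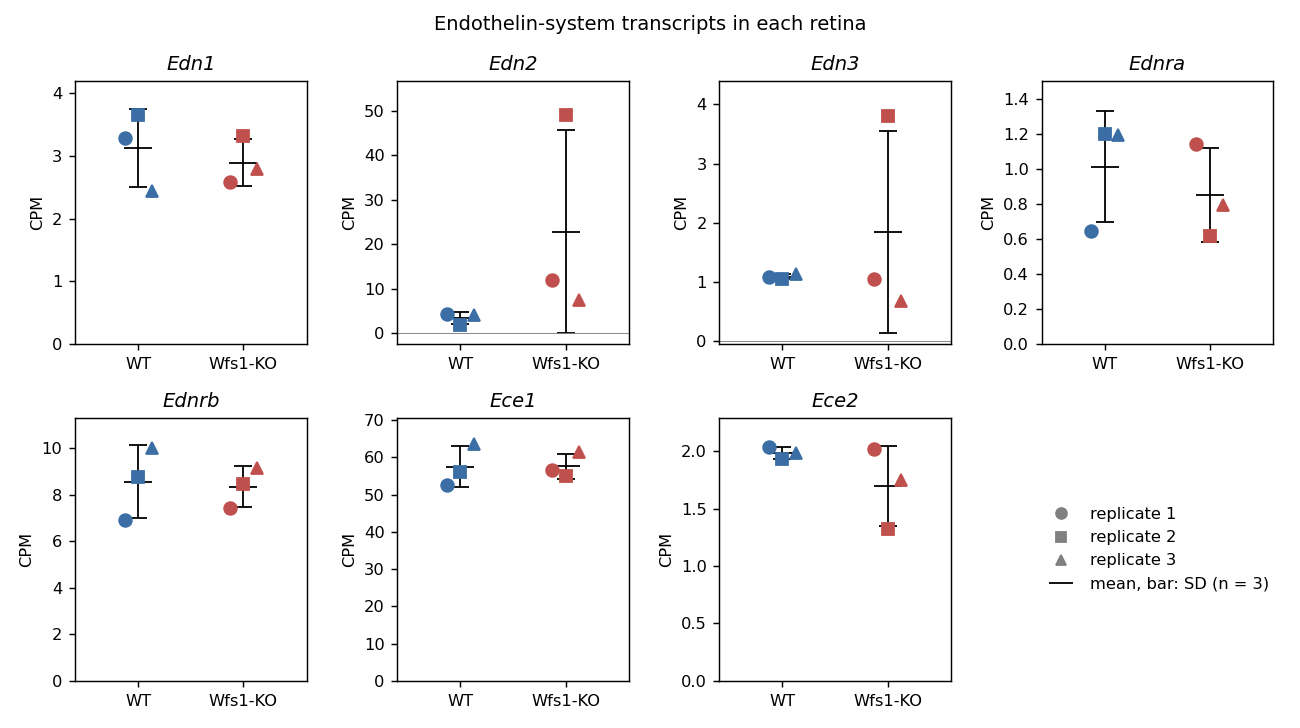
CPM of each endothelin-system gene in the 3 WT (blue) and 3 Wfs1-KO (red) retinas, with the mean and SD (n = 3) as black bars and a linear axis for each gene. Edn2 lies between 1.98 and 4.37 CPM in WT and between 7.38 and 49.1 CPM in Wfs1-KO, and for each of the other 6 genes the points of the genotypes overlap.

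Edn1 (ENSMUSG00000021367.8, chr13:42301476-42307990, plus strand), which encodes endothelin 1, the main endothelium-derived vasoconstrictor of the family, showed no comparable shift. It was at 3.28, 3.66 and 2.44 CPM in WT replicates 1, 2 and 3 and at 2.58, 3.32 and 2.79 CPM in the mutants. The genotypes overlapped, and Wfs1-KO replicate 2 lay within the WT range. On the log2 scale mutants differed from WT by -0.12 ± 0.28 (SE, 95% interval -0.78 to 0.54, edgeR adjusted p = 0.979), an interval that spans from 0.584 to 1.46 times the WT level. The value was -0.24 ± 0.26 (SE) without Wfs1-KO replicate 2. The reads behind it were few, with 43 counts in WT replicate 3.

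Edn3 (ENSMUSG00000027524.9, chr2:174760619-174784042, plus strand) followed another pattern, in which a single retina set the mutant mean. It was at 1.08, 1.05 and 1.14 CPM in the WT retinas, on 72, 50 and 20 counts. In Wfs1-KO replicates 1, 2 and 3 it was at 1.05, 3.81 and 0.681 CPM, on 108, 161 and 30 counts. Counting error alone is 22.4% (SD) at the lowest of these counts, so the closeness of the WT values carries no weight. Replicate 2 was the highest of the 6 retinas and replicate 3 the lowest, so the mutants lay on both sides of the WT group. The fitted log2 difference of 0.76 ± 0.64 (SE, edgeR adjusted p = 0.979) turned to -0.31 ± 0.37 (SE, adjusted p = 0.973) without Wfs1-KO replicate 2. In that retina, markers of other ocular tissues were raised as well. The summed level of the 8 melanocyte markers was 139.5 CPM there and between 25.0 and 32.6 CPM in the other retinas, that of the 7 pigment epithelium markers was 384 CPM against 112 to 167 CPM in WT and 88.1 and 49.6 CPM in Wfs1-KO replicates 1 and 3, and that of the 6 blood markers was 480 CPM against 12.3 to 41.2 CPM. In the edgeR fit without that retina, 6 of the 7 pigment epithelium markers were lower in mutants at an unadjusted p under 0.05. The share of all genes lower by that rule was 2.39%. After adjustment 1 of the 7 passed, against 0.125% of genes in either direction, and the median log2 difference was -1.07. On all 6 retinas 2 of the 7 were lower at that unadjusted threshold, against 0.566% of genes. There 0 passed after adjustment and the median was 0.03. The part of these tissues in the Edn3 and Edn2 values was not tested.

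Because levels of different genes compare only per length, the makeup of the ligand pool was computed as TPM, in which counts are divided by the exon length of the table and scaled to the same sum in each library. The scales part in Wfs1-KO replicate 2. There Ece1 was inside the WT range at 54.9 CPM but the lowest of all retinas at 22.3 TPM. TPM levels of that retina, unlike shares within it, carry this shift. Edn2 made up 61.3%, 39.8% and 65.0% of the summed ligand TPM in WT replicates 1, 2 and 3, and 84.3%, 92.4% and 76.8% in Wfs1-KO replicates 1, 2 and 3. In WT replicate 2 Edn1 was the more abundant ligand, at 50.3% of the pool, while Edn2 led in the other 5 retinas. The mean share of Edn2 was 55.4 ± 13.6% (SD, n = 3) in WT and 84.5 ± 7.79% (SD, n = 3) in Wfs1-KO, a difference of 29.1 percentage points with no overlap (two-sided exact permutation test, p = 0.1, the smallest p that 3 retinas against 3 allow). The same difference was 25.2 points without Wfs1-KO replicate 2. Edn3 made up between 7.14% and 9.92% of the pool in WT and between 3.33% and 3.43% in the mutants. Its own level overlapped, between 0.947 and 1.05 TPM in WT and at 1.02, 2.39 and 0.662 TPM in the mutants. The summed ligand level was 13.3, 9.78 and 12.4 TPM in WT and 29.7, 71.2 and 19.9 TPM in the mutants, so each mutant retina held a larger ligand transcript pool than each WT retina. Edn2 is part of the pool, so the shares and the sum restate its difference and are no separate result.

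**Figure D2:**
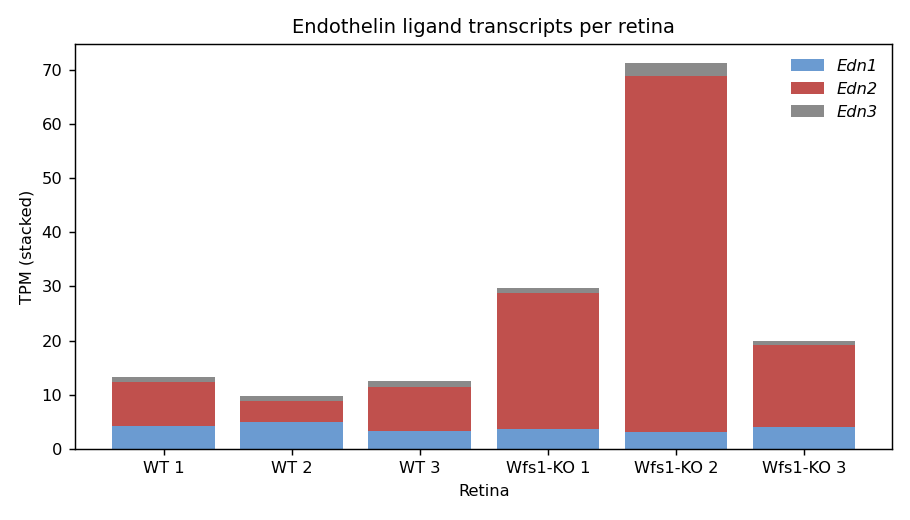
TPM of Edn1 (blue), Edn2 (red) and Edn3 (grey), stacked for each retina. Edn1 stays between 3.03 and 4.92 TPM in all 6 retinas, and Edn2 runs from 3.89 to 8.13 TPM in WT and from 15.3 to 65.8 TPM in Wfs1-KO.

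The receptors were close in level between genotypes. Ednrb (ENSMUSG00000022122.15, chr14:103814625-103844402, minus strand), which encodes the B receptor of the glia, was at 6.89, 8.76 and 9.99 CPM in WT and at 7.41, 8.45 and 9.15 CPM in the mutants, so all mutant retinas fell inside the WT range. The fitted log2 difference was -0.03 ± 0.22 (SE, edgeR adjusted p = 0.988), with a 95% interval from -0.56 to 0.49. A change of Ednrb as large as that fitted for Edn2 lies outside this interval. Ednra (ENSMUSG00000031616.7, chr8:77663031-77724464, minus strand), which encodes the A receptor of contractile vascular cells, was at 0.647, 1.20 and 1.19 CPM in WT and at 1.15, 0.616 and 0.795 CPM in the mutants. It rested on between 21 and 118 counts per retina, and its interval was wide, from -1.25 to 0.80 around a log2 difference of -0.23 ± 0.44 (SE, edgeR adjusted p = 0.979). Without Wfs1-KO replicate 2, Ednrb came to -0.04 ± 0.21 and Ednra to -0.02 ± 0.41 (SE).

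The balance of the receptors within a retina was taken as the log2 ratio of Ednrb to Ednra per length. It was 3.18, 2.64 and 2.83 in WT and 2.46, 3.54 and 3.29 in the mutants, so Ednrb exceeded Ednra in every retina. The mean ratio was 2.88 ± 0.27 in WT and 3.10 ± 0.57 in Wfs1-KO (SD, n = 3 each), and the difference of 0.22 was within the spread (two-sided exact permutation test, p = 0.7). It became -0.0070 without Wfs1-KO replicate 2.

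Of the converting enzymes, Ece1 had the highest mean level per length of all members in WT retinas, and its interval was the narrowest of the 7. Ece1 (ENSMUSG00000057530.14, chr4:137862237-137965229, plus strand), the membrane metalloprotease that releases active endothelin from its precursor, was at 52.7, 56.2 and 63.6 CPM in WT and at 56.5, 54.9 and 61.3 CPM in the mutants. The fitted log2 difference was 0.0026 ± 0.16 (SE, edgeR adjusted p = 0.999), and its 95% interval spans from 0.773 to 1.30 times the WT level. Ece2 (ENSMUSG00000022842.18, chr16:20629828-20646485, plus strand), a related enzyme of neurons and the secretory pathway, was at 2.03, 1.93 and 1.99 CPM in WT and at 2.02, 1.33 and 1.75 CPM in the mutants. The WT values lay close together, though on 135, 92 and 35 counts, and Wfs1-KO replicate 2 was the lowest retina, on 56 counts. The fitted log2 difference was -0.22 ± 0.30 (SE, with a 95% interval of -0.93 to 0.49 and an edgeR adjusted p of 0.979), and -0.08 without that retina.

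How the reads were assigned bears on Ece2 in particular. Of its 3368 exon bases in the table, 2932 (87.1%) are also exon bases of Gm49333, a longer gene model that runs from the neighbouring gene into Ece2. Gm49333 itself had 2 counts in WT replicate 1 and 0 counts in each of the other 5 retinas. Reads on the shared bases were therefore not counted for both genes. The sources used here do not state how such reads were handled, and 436 bases belong to Ece2 alone. Taken over these bases alone it would be 12.7, 12.8 and 13.2 TPM in WT in place of 1.64, 1.65 and 1.71 TPM. For the other members at most 2.51% of exon bases are shared with another gene, which is the value for Ednra. The log2 ratio of Ece1 to Ece2 differed by 0.25 between genotypes (two-sided exact permutation test, p = 0.3), with 4.34 ± 0.15 in WT and 4.59 ± 0.28 in Wfs1-KO (SD, n = 3 each). It was 0.12 without Wfs1-KO replicate 2 and 0.40 without Wfs1-KO replicate 1. The group means of this ratio take Ece2 over all its 3368 exon bases, so their height depends on that choice.

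**Figure D3:**
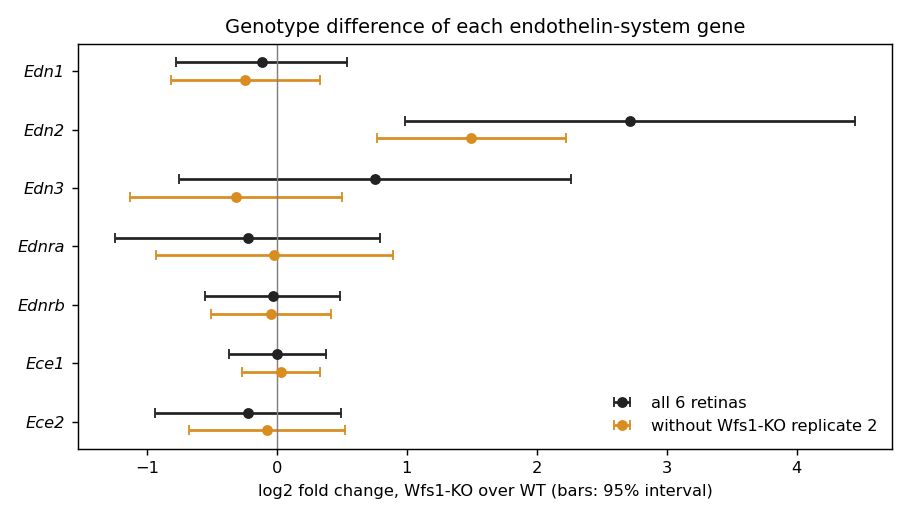
Log2 fold change, Wfs1-KO over WT, of each member with its 95% interval from edgeR, on all 6 retinas (black) and without Wfs1-KO replicate 2 (orange). The intervals of Edn2 lie above 0 in both fits, at 2.72 and 1.50, and those of the other 6 genes include 0 in both.

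Ordered by their level per length in WT retinas, the members ran from Ece1 at 33.9 ± 4.21 TPM through Edn2 at 6.70 ± 2.44, Ednrb at 5.70 ± 1.20, Edn1 at 4.13 ± 0.81, Ece2 at 1.67 ± 0.03 and Edn3 at 0.990 ± 0.056 to Ednra at 0.796 ± 0.268 TPM (SD, n = 3 each). Edn2, Ednrb and Edn1 overlapped in their WT values, as did Edn3 and Ednra, and the place of Ece2 depends on the exon bases counted as its own. In the mutants Edn2 stood at 35.4 ± 26.8 TPM (SD, n = 3) beside Ece1 at 32.1 ± 8.63 TPM. Edn2 was above Ece1 in Wfs1-KO replicate 2, at 65.8 against 22.3 TPM, and below it in the other 5 retinas.

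The window from 250 bases before the start of Edn2 was read from RefSeq (GRCm38.p6) because Edn2 is the member whose genotypes did not overlap. These 250 bases, on the plus strand of chr4:120160956-120161205, end at the base before the transcription start.
Edn2 promoter: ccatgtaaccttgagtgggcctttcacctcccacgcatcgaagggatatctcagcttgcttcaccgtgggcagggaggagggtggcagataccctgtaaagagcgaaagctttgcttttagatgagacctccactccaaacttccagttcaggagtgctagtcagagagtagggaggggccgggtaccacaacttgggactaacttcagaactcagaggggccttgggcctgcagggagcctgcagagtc
No letters are in capitals because none of the 3 motifs searched on both strands was present: the hypoxia core ACGTG, the STAT motif TTCNNNGAA and the AP-1 motif TGANTCA. Of the 32851 promoter windows of the table, which also include the 50 bases after the start, 19.6% held the first, 8.30% the second and 7.81% the third. Among the members, ACGTG was found in the windows of Edn1 and Ece2 and in 1 of 4 windows of Ece1, and neither of the other motifs was found in the window of any member. The absence of these letters says nothing of the factors themselves.

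The wider pathway was described through lists of genes. Of the 10 peptide-processing genes (furin-like proteases and relatives of the converting enzymes), 8 were tested and 0 passed edgeR's adjusted threshold, with a median log2 fold change of -0.07 against 0.02 over all genes tested. Phex, a relative of the converting enzymes best known from phosphate metabolism, had the smallest unadjusted p of that list. It was at 0.301, 0.336 and 0.341 CPM in WT and at 0.505, 0.710 and 0.908 CPM in the mutants, on as few as 6 counts (log2 difference 1.11 ± 0.44, SE, edgeR unadjusted p = 0.0372 and adjusted p = 0.979). Of the 23 receptor-signaling genes, which cover G proteins, phospholipase C, calcium release channels, protein kinase C, arrestins and regulators of G protein signaling, 23 were tested and 0 had an unadjusted p under 0.05 in either direction, with a median of 0.11. The 10 tested hypoxia-response genes, of 11 listed, had a median of -0.14, and the 11 vasoactive counterparts, which cover nitric oxide synthases, the adrenomedullin receptor and the natriuretic peptides with their receptors, had a median of 0.31. In the hypoxia-response and vasoactive lists 0 genes had an edgeR unadjusted p under 0.05. The medians without Wfs1-KO replicate 2 were 0.03 for peptide processing, 0.09 for receptor signaling, -0.07 for hypoxia and 0.22 for the vasoactive counterparts.

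Among genes known to respond to photoreceptor injury, the list of 17 that holds gp130 cytokines, STAT3 targets and reactive glia genes had 15 members with a higher fitted level in mutants and 2 with a lower one. All 17 were tested, 0 passed edgeR's adjusted threshold on all 6 retinas, and 9 had an unadjusted p under 0.05, all of them higher in mutants, with a median of 1.09. Over all genes tested 2.24% were higher and 0.566% lower by that rule. Without Wfs1-KO replicate 2, 12 had a higher and 5 a lower fitted level, with a median of 0.33. In that fit 5 genes had an unadjusted p under 0.05, all higher, against 2.8% of all genes, and 1 passed after adjustment, Serpina3n. The study itself names Gfap, Lcn2 and Edn2, and also C4, from this experiment, and the list was chosen with earlier results known, so the count is no independent evidence of direction. The study also reported that RT-qPCR on separate samples largely bore out selected genes, and its primer list includes Edn2, Gfap, Lcn2 and C4b.

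Serpina3n, a secreted protease inhibitor of reactive glia, was at 19.6, 19.7 and 22.4 CPM in WT and at 50.3, 123 and 46.4 CPM in Wfs1-KO replicates 1, 2 and 3. The fitted log2 difference was 1.83 ± 0.39 (SE, edgeR adjusted p = 0.979) on all 6 retinas and 1.23 ± 0.14 (SE, edgeR adjusted p = 0.00490) without Wfs1-KO replicate 2. Gfap, the intermediate filament of astrocytes and reactive Müller glia, was at 19.2, 13.1 and 11.2 CPM in WT and at 47.5, 104 and 21.2 CPM in the mutants. Its mutant replicates stood in the same order as those of Edn2, with replicate 2 highest and replicate 3 lowest. The same order held for Serpina3n and Lcn2. It held for Bcl3 and Timp1 too, but with replicates 1 and 3 nearly equal in CPM. The share of all genes with this order was not computed. Lcn2, an iron-binding secreted protein of reactive glia, was at 1.82, 1.53 and 1.82 CPM in WT and at 4.98, 77.4 and 4.27 CPM in the mutants. Bcl3, a regulator of NF-κB that STAT3 induces, was at 0.331, 0.546 and 0.114 CPM in WT and at 0.990, 5.42 and 0.976 CPM in the mutants. Timp1, an inhibitor of matrix metalloproteases, had 2, 4 and 2 counts in the WT libraries and 53, 210 and 22 counts in Wfs1-KO replicates 1, 2 and 3. Relative to depth these mutant libraries were at 0.514, 4.97 and 0.500 CPM. The DESeq2 adjusted p over the 6 retinas came to 0.00424 for Serpina3n, 0.00269 for Timp1, 0.0495 for Gfap and 0.110 for Bcl3, and DESeq2 gave none for Lcn2. The WT counts of Timp1 are at or near the floor of 3, so no fold is given, and Bcl3 rested on 2 counts in WT replicate 3.

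The genes whose course over the 6 retinas was nearest to that of Edn2 were found as a description. The distance was the root mean square difference of log2 CPM after each gene was centred on its own mean, over 15002 other genes with a mean of at least 1 CPM. The nearest were Gm15327 (distance 0.389), Steap4 (0.422), Gm47283 (0.438), C4b (0.445) and C3 (0.454). Steap4 encodes a metalloreductase induced by inflammatory signals, and C4b and C3 encode complement proteins. Steap4 was at 2.09, 1.98 and 2.27 CPM in WT and at 7.88, 19.0 and 3.95 CPM in the mutants. C4b was at 11.5, 7.10 and 9.93 CPM in WT and at 27.2, 236 and 14.0 CPM in the mutants. C4b has a close paralog, C4a, that could share its reads. All 5 genes had their highest level in Wfs1-KO replicate 2, the retina that dominates this distance. Over the other 5 retinas alone C4b was the nearest gene of all, Steap4 ranked 7, Gm15327 ranked 17, Gm47283 ranked 19 and C3 ranked 54.

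Markers of the cells that make or receive these signals were measured beside the members. All listed markers of photoreceptors (11), Müller glia (9), astrocytes (5), endothelium (8) and pericytes or smooth muscle (8) were detected in every retina. The summed photoreceptor markers were between 63605 and 71453 CPM in WT, at 63764 and 63634 CPM in Wfs1-KO replicates 1 and 3, and at 48425 CPM in replicate 2, the retina with the most Edn2. In the edgeR fit with replicate 2 included, 10 of the 11 photoreceptor markers had a lower fitted level in mutants and 1 a higher one. There 0 had an unadjusted p under 0.05, and the median log2 difference was -0.18. Without replicate 2, 11 of the 11 had a lower fitted level, with a median of -0.23. In that fit 3 had an unadjusted p under 0.05, against 2.39% of all genes lower by that rule, and 0 passed after adjustment. The summed Müller glia markers were between 6314 and 7153 CPM in WT and at 5781, 9429 and 5999 CPM in the mutants. The summed astrocyte markers, which include Gfap, were between 43.5 and 56.8 CPM in WT and at 87.9, 186 and 57.0 CPM in the mutants. Of these sums Gfap alone held 11.2 to 19.2 CPM in WT and 47.5, 104 and 21.2 CPM in the mutants. In edgeR 2 of the 5 were higher at an unadjusted p under 0.05 on all 6 retinas, against 2.24% of genes. Without replicate 2 it was 1 of the 5, against 2.8%, and 0 passed after adjustment in either fit. The endothelium markers ran from 243 to 334 CPM in WT and from 333 to 345 CPM in the mutants, next to an Edn1 level that did not separate the genotypes. The summed lens markers were low, between 1.36 and 1.69 CPM in WT and at 2.98, 3.03 and 2.23 CPM in the mutants. Every mutant retina thus lay above every WT retina. Of the 9 lens markers, 3 were at 0 in at least 1 retina and 4 were tested in edgeR. At an unadjusted p under 0.05, 1 was higher in mutants on all 6 retinas, against 2.24% of genes. Without replicate 2, 2 were higher, against 2.8% of genes, and 0 passed after adjustment in either fit. The summed pericyte and smooth muscle markers ran from 51.0 to 60.5 CPM in WT and from 49.8 to 75.4 CPM in the mutants. The part of these markers in the Edn2 difference was not tested.

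**Figure D4:**
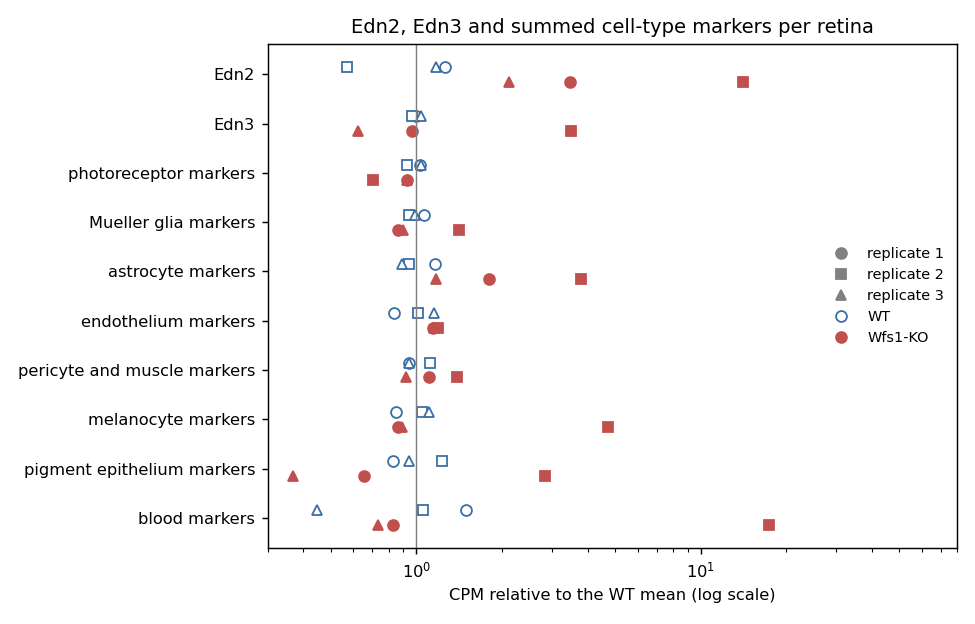
CPM of Edn2, Edn3 and the summed marker lists other than lens in each retina, divided by the WT mean and drawn on a log axis (open symbols WT, filled symbols Wfs1-KO, shape by replicate). Edn2 is above 1 in all mutant retinas, whereas Edn3, melanocyte, pigment epithelium and blood markers are above the WT values in Wfs1-KO replicate 2 and not in replicates 1 and 3.

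Edn2 kept its direction in all 15 alternative settings tried. Its log2 fold change ran from 1.49 to 3.14, with the lowest values in the fits without Wfs1-KO replicate 2, and its adjusted p ran from 0.00216 to 1.00. Leaving out WT replicate 2, the WT retina with the least Edn2, gave 2.43, and leaving out WT replicate 3 gave 2.82.

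**Figure D5:**
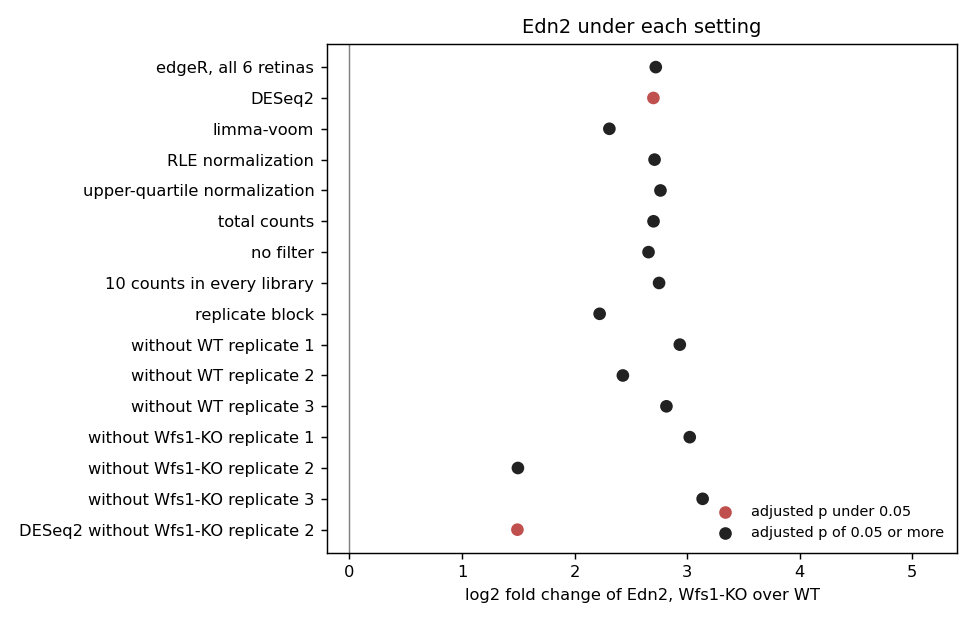
Log2 fold change of Edn2, Wfs1-KO over WT, under each setting, in red where the adjusted p was under 0.05. All values lie between 1.49 and 3.14, and the red points are those of DESeq2, at 2.70 on all 6 retinas and 1.49 without Wfs1-KO replicate 2.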

How the data were processed

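RNA-seq of whole retinas from 3 WT and 3 Wfs1-KO mice was analysed. Per the labels and methods, trimmed reads were aligned to mm10 by STAR and assigned to genes by featureCounts, and what the authors deposited are raw counts, not normalized. The submitters' processing notes give Trimmomatic 0.39, STAR 2.5.3a and featureCounts 1.6.4, and the methods give other versions of the first and second of these. Columns were matched to samples by name, with C for the controls, and 2 further columns, which fit none of the listed samples by name, were left out, and whether the study's own comparison used them is not known here. The members and gene lists were chosen with earlier results of these data known. Genotypes were compared over 18547 of 55376 genes by the quasi-likelihood test of edgeR 4.0.16 under R 4.3.3, with TMM factors, its default filter on low counts, genotype as the single term and Benjamini-Hochberg adjustment. The fits were checked on simulated data with the same dispersion for every gene and no outlying library. That check does not cover a retina that stands apart as Wfs1-KO replicate 2 does. The standard error is the log2 fold change divided by the root of F. DESeq2 1.42.0 and limma 3.58.1 (voom) served as alternatives. TPM used the exon length of the table. Named list genes are up to 5 per list with the smallest unadjusted p under 0.05, and 5 genes nearest to the profile of Edn2. Results were recomputed with other normalizations and filters, with the replicate block and with each retina left out. The DESeq2 fit that leaves out Wfs1-KO replicate 2 was chosen after seeing the data.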

Additional observations from a re-analysis of the deposited data

How the results depend on the processing

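On all 6 retinas 0 members passed as higher and 0 as lower with edgeR. With DESeq2, 1 member, Edn2, passed as higher (log2 fold change 2.70), also without Wfs1-KO replicate 2 (1 member, 1.49), a fit chosen after seeing the data. The other 13 settings gave 0 members, and the cause was not tested. Over all genes, edgeR called 2, against 49 with DESeq2, 95 with DESeq2 without Wfs1-KO replicate 2, 9 with no filter, 1 with the replicate block and from 0 to 24 with a retina left out, the 24 without Wfs1-KO replicate 2. With each retina left out in turn the log2 fold change of Edn2 ran from 1.50 to 3.14, and with the replicate block it was 2.22 (adjusted p = 0.992, edgeR), which changed no call of a member. The labels link same-numbered retinas by a number only. Their deviations from the genotype means correlated at -0.23, -0.11 and 0.08. With 3 retinas per genotype these values cannot tell whether same-numbered retinas were handled together.

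Signs turned for 4 members and 1 ratio, none of them called in any setting. The log2 fold change of Ece1 was -0.011 with DESeq2, -0.0094 with RLE factors, -0.022 with no filter and from -0.058 to 0.064 with a retina left out. That of Ednrb was 0.0073 with limma-voom and from -0.17 to 0.074 with a retina left out, that of Edn1 from -0.28 to 0.0086 and that of Edn3 from -0.31 to 1.14, with -0.32 for DESeq2 without Wfs1-KO replicate 2. The receptor ratio difference ran from -0.0070 to 0.54. Ednra, Ece2, the share of Edn2 and the Ece1 to Ece2 ratio kept their sign in every setting. That of Edn3, 0.76 on all 6 retinas, was below 0 only where Wfs1-KO replicate 2 was left out. The difference of the Ece1 to Ece2 ratio ran from 0.12 to 0.40 with a retina left out. WT replicate 3 held the fewest counts, 20 to 43 for Edn1, Edn3, Ednra and Ece2.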
